A study of Mus musculus with 6 samples.

Results

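The mitotic genes described here are 36 genes of the G2/M kinases, cyclins, kinetochore, spindle and cytokinesis, measured by microarray in whole kidneys taken from mice on embryonic day 12.5. They were chosen by name: a probe set counted as a member if its only gene symbol in the annotation of the array was one of the 36. This gave 73 of the 45101 probe sets and 35 of the 36 genes. Ccnb1, which encodes cyclin B1, had no probe set with that single symbol and is not analysed here. Of the 73 probe sets, 59 passed a brightness filter that kept 22519 probe sets of the array, and each of the 35 genes had at least 1 among them. The 14 others are described by their values alone.

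RNA came from 2 groups of C57BL/6 embryos with 3 biological replicates each and 1 Affymetrix whole-genome mouse array per replicate, wild-type and Ret-deficient. For the mutant samples the title and genotype give the kidney as Ret-deficient, whereas the source entry speaks of a knockout pregnant female; here the title was used. Neither the Ret allele, the litters nor the number of embryos behind a sample is stated, so the p-values measure the spread between these samples. Ret encodes the receptor for GDNF on the ureteric bud, the epithelial tube whose branching builds the collecting system. The brighter Ret probe set read 13315, 11042 and 10193 in wild-type replicates 1, 2 and 3, and 93.3, 479.8 and 334.1 in the Ret-deficient ones.

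Every array had the same mean signal of 2500 after trimming 2 percent at each end, so all differences are relative to the rest of the RNA. In whole kidneys, fewer cells in division and less RNA of these genes per cell cannot be told apart. All 8 nephron progenitor markers fixed for the tissue check lay above the brightest unspiked bacterial control (97.2 to 186.9) on all 6 arrays. Several libraries stood apart. Wild-type replicate 1 had a 3 prime to 5 prime signal ratio of 4.91 for Gapdh and 10.7 for beta-actin, against 1.86 to 2.31 and 3.88 to 5.21 on the other arrays. The summed signal of 10 ureteric epithelium markers was 6608 in Ret-deficient replicate 1 and 45513 to 71053 elsewhere. In that replicate 4 of the 10 were at or under the control and 1 to 2 in each other one, Wnt7b on all 6 arrays. Of the 9 that passed the brightness filter 8 were lowest of all arrays in that replicate, while Wnt11 was highest there (756.8). The summed signal of 12 macrophage markers was 69144 in Ret-deficient replicate 3 and 19953 to 36231 elsewhere. None was at or under the control in that replicate, and 0 to 3 were elsewhere. For 8 erythroid markers the sum was 252666 in Ret-deficient replicate 2 and 169227 to 207527 elsewhere. On each array 1 to 2 of them were at or under the control, Hba-a1 on all 6. For 5 neural crest and neuron markers it was 3240 to 5847 in the Ret-deficient arrays and 8203 to 9694 in the wild-type ones. Of these, 0 to 1 were at or under the control on each array. Stmn2 did not follow this sum, with 1292.5 in Ret-deficient replicate 1 and 447.6 to 939.7 in the wild-type arrays.

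Mitosis is driven by the kinase Cdk1 bound to cyclin A or B, and is carried through by Polo-like and Aurora kinases, kinetochores that tie chromosomes to the spindle, and a final cut between the daughter cells. Exit begins when the anaphase-promoting complex, a ubiquitin ligase, marks securin and the cyclins for destruction. The transcripts of these genes peak together late in the cell cycle and are low in resting cells. In the embryonic kidney, division is frequent in the ureteric bud tips and in the nephron progenitors around them, so a whole-kidney signal sums over several dividing cell types.

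Many promoters of such genes carry the cell cycle genes homology region (CHR), the site of the DREAM and MuvB complexes, together with CCAAT boxes, which bind NF-Y. RefSeq promoters (GRCm38.p6), reaching 250 bases before and 50 after the start, were held for 30 of the 36 genes. The words searched were TTTGAA and TTCGAA for the CHR and CCAAT for the box, on both strands; by their letters, words of the 2 kinds can share at most 1 base. A CHR word stood in 23 of the 30 genes (76.7%) and in 21.7% of all 27025 genes with a promoter. A CCAAT word stood in 22 (73.3%, against 41.1%), and both stood in 20 (66.7%, against 8.61%). Within 50 bases of the start a CHR word was found in 21 of the 30 genes (70.0%) and in 6.12% of all genes, a distance chosen after the positions were seen. These are matches of letters and not measured sites.

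The 6 stretches below run from 120 bases before to 30 after the start, 5′ to 3′ on the gene's strand, with CHR and CCAAT words in capitals. They show Prc1 and Ect2, whose Ret-deficient arrays all read below the wild-type ones, and Bub1, which had a lower mean with overlapping groups. Beside them stand members whose groups overlapped closely (Cdk1, Cdc20, Ccnb2). Each stretch holds a CCAAT word and a CHR word, which is TTCGAA in Bub1 and TTTGAA in the rest. The genes were picked after their values were seen, and no link between words and values was tested. Prc1 lies at chr7:80294356-80294505 (plus strand), Ect2 at chr3:27153825-27153974, Bub1 at chr2:127831830-127831979, Cdk1 at chr10:69352883-69353032, Cdc20 at chr4:118437314-118437463 and Ccnb2 at chr9:70421525-70421674 (all minus strand). For Prc1 and Ect2, which have 2 starts each in the table, the more downstream one was used.
Prc1: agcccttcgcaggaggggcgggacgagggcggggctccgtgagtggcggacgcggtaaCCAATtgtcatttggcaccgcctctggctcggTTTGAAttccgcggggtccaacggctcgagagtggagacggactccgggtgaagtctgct
Ect2: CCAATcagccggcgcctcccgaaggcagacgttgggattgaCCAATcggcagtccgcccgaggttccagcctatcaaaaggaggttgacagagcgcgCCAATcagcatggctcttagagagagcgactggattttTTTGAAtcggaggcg
Bub1: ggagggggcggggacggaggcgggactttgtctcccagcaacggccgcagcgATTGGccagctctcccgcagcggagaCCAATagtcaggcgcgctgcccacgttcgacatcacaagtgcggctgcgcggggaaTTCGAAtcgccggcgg
Cdk1: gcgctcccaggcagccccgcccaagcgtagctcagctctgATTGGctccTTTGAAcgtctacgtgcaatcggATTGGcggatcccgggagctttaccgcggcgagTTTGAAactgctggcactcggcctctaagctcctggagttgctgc
Cdc20: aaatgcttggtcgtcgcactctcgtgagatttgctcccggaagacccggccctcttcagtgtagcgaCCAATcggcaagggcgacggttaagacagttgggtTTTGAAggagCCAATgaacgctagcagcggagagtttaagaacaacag
Ccnb2: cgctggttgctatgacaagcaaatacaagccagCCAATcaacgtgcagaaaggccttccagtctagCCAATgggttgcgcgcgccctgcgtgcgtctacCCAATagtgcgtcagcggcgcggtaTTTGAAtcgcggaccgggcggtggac

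In Ccnb2 the 3 CCAAT boxes begin 33 bases apart, at 87, 54 and 21 bases before the start, and the CHR word begins at base 5 after it. In Cdk1 the boxes stand in the reverse orientation, 32 bases apart, and a CHR word begins 15 bases before the start. Bub1 carries the palindromic word TTCGAA at base 15 after the start. As a description, the median log2 difference (Ret-deficient minus wild-type) was -0.10 over the 23 genes with a CHR word (range -0.48 to 0.18) and -0.12 over the 6 measured genes without one (range -0.23 to 0.08). Those without were Birc5, Cenpe, Mad2l1, Nuf2, Nusap1 and Pttg1, and the unmeasured Ccnb1.

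The comparison asks whether the transcripts of dividing cells differ between kidneys with and without the receptor. None of the 59 mitotic probe sets reached the limma threshold (adjusted p of 0.05), and neither did any of the 22519 tested (0%). At an unadjusted p under 0.05 there were 3 of 59 member probe sets (5.08%), near the background of 5.36%, and 1 of the 35 genes, Ect2, against 5.54% of all genes. Adjusted p-values of the member probe sets ran from 0.861 to 0.999. The differences were small. In this and all following results a gene is represented by its brightest probe set, and a difference is Ret-deficient minus wild-type on the log2(signal + 16) scale. Over the 35 genes it ran from -0.48 to 0.18 with a median of -0.10, while the median over all 11592 tested genes was 0.00. The standard errors lay between 0.15 and 0.37. Of the 35 genes 32 were negative (91.4%, against 49.5% of all genes), but 7 of the 35 differed by less than 0.05 in size, and 11 were at -0.2 or below. In 4 genes the groups did not overlap, all with the Ret-deficient arrays lower (11.4%, against 5.75% of all genes), and none was higher (against 6.03%). Over probe sets it was 10 lower (16.9%, against 5.57%) and 1 higher (against 5.19%).

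The negative count rested on 2 arrays. Without Ret-deficient replicate 3, 20 of the 35 genes were negative (57.1%, against 48.8% of all genes) with a median of -0.055. Without wild-type replicate 1 it was 24 (68.6%, against 49.7%) with a median of -0.048. Without both, an alternative added after seeing the data, it was 18 (51.4%, against 49.7%) with a median of -0.029. With array quality weights 22 were negative (against 52.0% of all tested probe sets) and the median was -0.030.

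**Figure D1:**
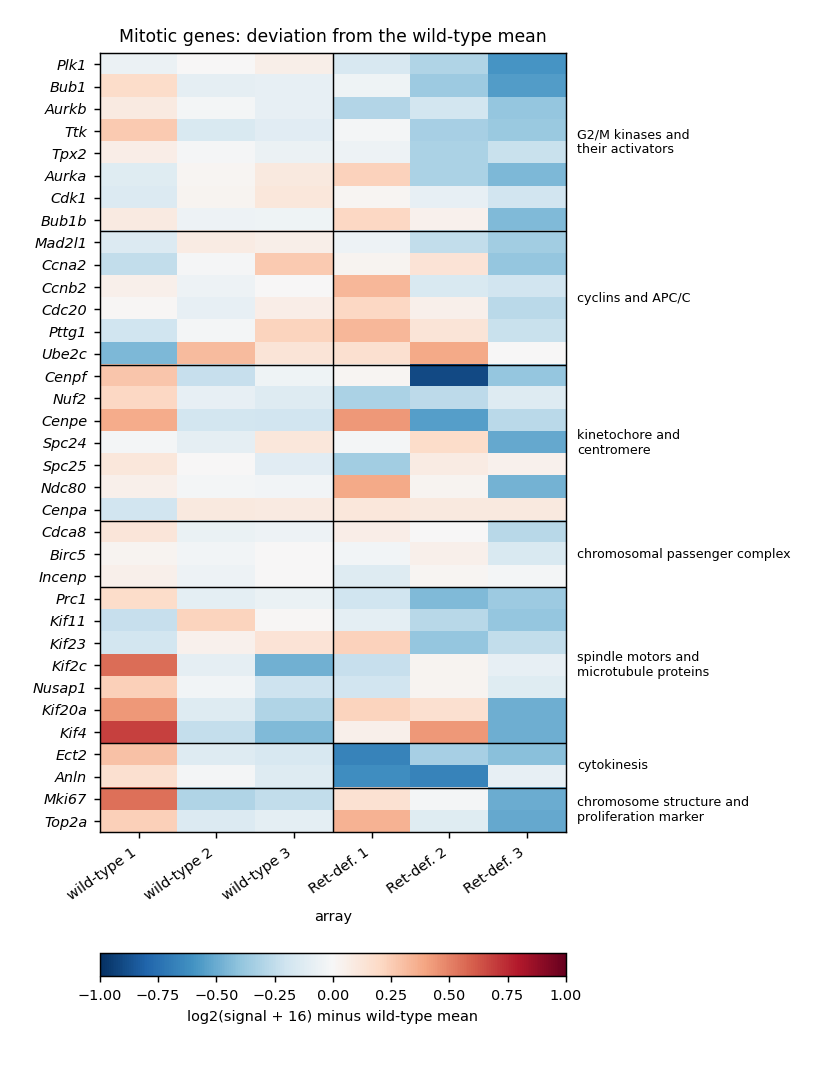
Each row is 1 of the 35 mitotic genes, grouped by role, and each column an array; colour gives log2(signal + 16) minus the gene's wild-type mean, red above and blue below. The column of Ret-deficient replicate 3 is mostly blue, with a median of -0.35, while that of replicate 1 holds both colours, with a median of 0.02.

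The Ret-deficient kidneys differed among themselves. Measured from the wild-type mean, the median mitotic gene was at 0.02 in Ret-deficient replicate 1, -0.08 in replicate 2 and -0.35 in replicate 3, and at 0.09, -0.05 and -0.04 in the wild-type replicates. In replicate 3, 27 of the 35 genes were under all wild-type values (77.1%, against 25.3% of all genes) and none above them all. In replicate 2 it was 16 below (45.7%, against 27.9% of all genes) and 3 above (8.57%, against 28.2%). Replicate 1 had 9 below (25.7%, against 28.2%) and 10 above (28.6%, against 29.1%), shares near those of all genes. Replicate 3 gave the lowest of the 6 values for 21 of the 35 genes (60.0%, against 16.8% of all genes). Replicate 3 also had the highest macrophage sum (69144) and the highest sum of 6 renal stroma markers (89606, against 63533 to 74227 elsewhere). Its sum of 7 endothelial markers was the lowest, at 14069, and that of wild-type replicate 1 the highest, at 28072 (15778 to 21646 on the others). None of these stroma or endothelial markers was at or under the control on any array. The markers did not all follow the sums. Ret-deficient replicate 3 was the highest array in 3 of the 6 stroma markers, and wild-type replicate 1 in 3. Of the 7 endothelial markers, Ret-deficient replicate 3 was lowest in 4 and wild-type replicate 1 highest in 4. Tek alone gave 14650.5 of the sum in wild-type replicate 1, whereas Cdh5 was lowest there (1380.1). The Gapdh ratio of Ret-deficient replicate 3, 2.28, was within the range of the others, and its beta-actin ratio of 5.21 was the highest after wild-type replicate 1. In Ret-deficient replicate 1, where the ureteric epithelium sum was 6608, the median mitotic gene was at 0.02. The part of any of these values in the result was not tested.

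All 8 G2/M kinases and activators were negative, with a median of -0.22 and none past the test; the spindle, passenger complex, cytokinesis and proliferation marker groups were also negative throughout. Plk1, the Polo-like kinase that acts from mitotic entry to cytokinesis, read 6208, 6449 and 6749 in wild-type replicates 1, 2 and 3 and 5793, 5237 and 4286 in the Ret-deficient ones. Each Ret-deficient array lay below each wild-type array, with replicate 3 lowest. The means were 6469 ± 271 and 5105 ± 762 (SD, n = 3), and the log2 difference was -0.35 (SE 0.17, limma adjusted p = 0.936). The exact permutation test of 3 arrays against 3 cannot go below p = 0.1, which is its value for any gene whose groups do not overlap.

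Aurkb, the kinase of the chromosomal passenger complex that corrects faulty spindle attachments, read 7323, 6806 and 6529 in wild-type and 5605, 6067 and 5247 in Ret-deficient kidneys. Again the groups did not overlap, and the means were 6886 ± 403 and 5639 ± 411 (SD, n = 3). Its log2 difference was -0.29 (SE 0.15, limma adjusted p = 0.938). A dimmer Aurkb probe set gave a like difference of -0.28 with overlapping groups. Bub1, a kinase of the spindle checkpoint, read 16302, 13498 and 13605 in wild-type and 14019.5, 11212 and 9795 in Ret-deficient kidneys. Ret-deficient replicate 1 lay within the wild-type range and the others below it. The log2 difference was -0.32 (SE 0.19), and a dimmer Bub1 probe set, with -0.47, did not overlap: its Ret-deficient values were 661.4, 658.4 and 646.2 against 712.6 to 1251 in wild-type.

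The other kinase group members overlapped. The checkpoint kinase Ttk had -0.24 and the Aurora A activator Tpx2 -0.20, with a further Tpx2 probe set at -0.29 that did not overlap. Aurka had -0.18, and read highest of all in Ret-deficient replicate 1 (6514) and lowest in replicate 3 (4054). Cdk1 itself had -0.08 (SE 0.16), reading 29325 to 33984 in Ret-deficient and 30483 to 36119 in wild-type kidneys, and the checkpoint protein Bub1b had -0.06. From the wild-type mean the median of the 8 kinase genes was -0.03 in Ret-deficient replicate 1, -0.31 in replicate 2 and -0.42 in replicate 3. Without replicate 3 the median of the group was -0.18 with 7 of 8 negative, and without wild-type replicate 1 it was -0.20 with all 8 negative. Without both arrays it was -0.11 with 7 of 8 negative. With array quality weights 7 of 8 were negative.

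**Figure D2:**
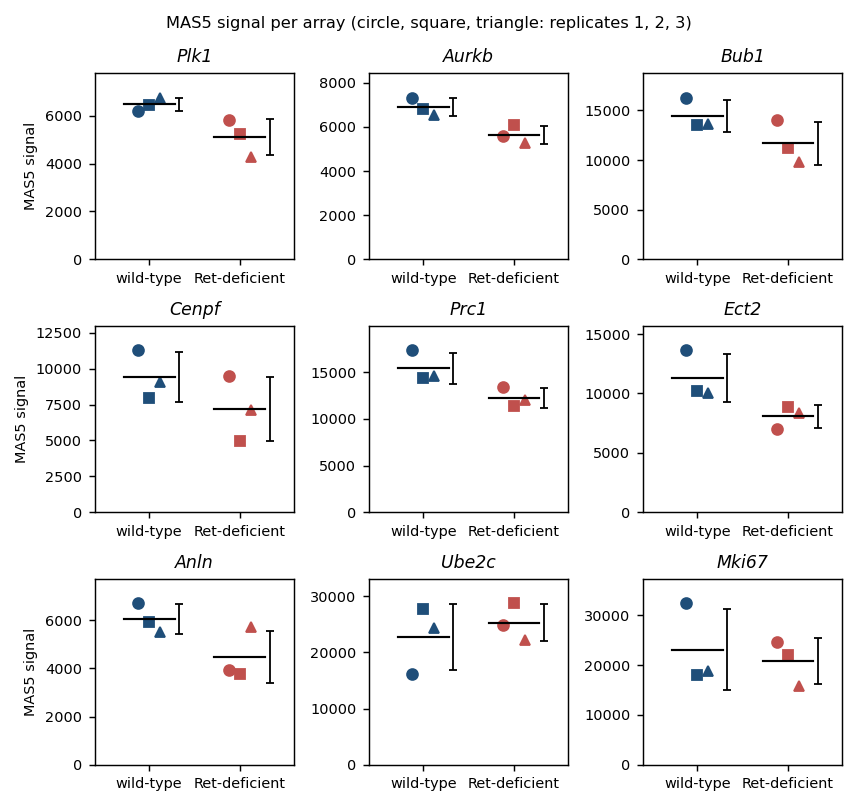
MAS5 signal (linear scale from 0) for 9 mitotic genes; each symbol is an array (circle, square and triangle for replicates 1, 2 and 3), the horizontal bar is the group mean and the whisker the SD of 3 arrays. In Plk1, Aurkb, Prc1 and Ect2 the groups do not overlap; in Anln replicate 3 and in Mki67 wild-type replicate 1 stand away from their groups.

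The cyclins and the genes of the anaphase-promoting complex showed no common direction, with 4 of 6 negative and a median of 0.00. Leaving out Ret-deficient replicate 3 gave 1 of 6 and 0.11. Mad2l1, which holds the complex in check until chromosomes are attached, read 10936, 12743 and 12538 in wild-type and 11602, 10098 and 9475 in Ret-deficient kidneys. The groups overlapped in Ret-deficient replicate 1, and the log2 difference was -0.22 (SE 0.16). Ube2c, the conjugating enzyme of the complex, read 16204, 27729.7 and 24382 in wild-type and 24817, 28839.7 and 22229.9 in Ret-deficient kidneys. The positive difference of 0.18 (SE 0.24) came with a low wild-type replicate 1, and without that array it was -0.05. Pttg1, or securin, which guards the cohesin between sister chromatids, read 39282, 44415 and 52261 against 56499, 49121 and 38523, a difference of 0.08 (SE 0.21) that was -0.02 without wild-type replicate 1. The mitotic cyclins Ccna2 and Ccnb2 had -0.07 and 0.00, and the activator Cdc20 had 0.00. For Ccnb2 the wild-type arrays lay within 10959 to 11678, while the Ret-deficient ones spread from 9886 to 14272, with replicate 1 highest.

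Of the 7 kinetochore and centromere genes 6 were negative, with a median of -0.11. The count was 4 of 7 without wild-type replicate 1 (median -0.02) and also 4 of 7 without Ret-deficient replicate 3 (median -0.06). Cenpf, a large kinetochore and microtubule protein, had the most negative difference of them, -0.42 (SE 0.28, limma adjusted p = 0.94). It read 11295, 7925 and 9040.4 in wild-type and 9479, 4978 and 7122 in Ret-deficient kidneys, so replicate 2 was lowest and replicate 1 within the wild-type range. Over the arrays left out in turn the difference of Cenpf ran from -0.64 without Ret-deficient replicate 1 to -0.18 without replicate 2. Nuf2, a subunit of the NDC80 complex that binds microtubules, read 9390.3, 7644 and 7397 against 6502, 6774 and 7399. Its highest Ret-deficient value lay just above its lowest wild-type value, and the difference was -0.23 (SE 0.17).

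Its partners in the NDC80 complex were nearer to 0, with Ndc80 at -0.02 (SE 0.24), Spc24 at -0.11 (SE 0.22) and Spc25 at -0.08 (SE 0.18); no test between genes was made. Spc24 and Ndc80 were lowest in Ret-deficient replicate 3 (7741 and 2675), and Spc25 in replicate 1 (8476). The kinetochore motor Cenpe had -0.13 (SE 0.30). Cenpa, the histone H3 variant that marks centromeres, was positive at 0.10 (SE 0.16): its Ret-deficient values were 14505, 14461 and 14421, and those of wild-type 11773, 14469.7 and 14323.5. Here too wild-type replicate 1 alone was low, and without it the difference was 0.01. A dimmer Cenpa probe set went the other way, at -0.41 (SE 0.38).

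The non-enzymatic members of the chromosomal passenger complex, which with Aurkb watches over chromosome attachment, lay between -0.07 and -0.04; without Ret-deficient replicate 3 only 1 of the 3 was negative. Birc5, or survivin, read 33413, 32226 and 32789 in wild-type and 32063, 33902 and 29496 in Ret-deficient kidneys, a difference of -0.05 (SE 0.15). Incenp, the scaffold, had -0.04 (SE 0.15; wild-type 44690.4 to 48069, Ret-deficient 42511 to 46875) and Cdca8, or borealin, -0.07 (SE 0.17; 34379 to 39384 against 29823 to 37939). Dimmer probe sets of both, however, did not overlap between the groups. For Incenp one read 8290.5, 8937 and 9247 against 7499.8, 6842 and 7623 (-0.27), and for Cdca8 one read 17812, 16174 and 16501 against 14489, 15809.9 and 14778 (-0.16). The suffix of the brightest Incenp and Cdca8 probe sets marks probes that can match more than 1 transcript, which holds for 8 of the 35 representative probe sets.

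All 7 spindle motors and microtubule proteins were negative by sign, with a median of -0.10, and this sign did not hold: without wild-type replicate 1 it was 3 of 7, with a median of 0.02. Prc1, which bundles the antiparallel microtubules of the central spindle, read 17382, 14341.5 and 14616 in wild-type and 13396, 11347 and 12025 in Ret-deficient kidneys. The groups did not overlap. Its means were 15447 ± 1682 and 12256 ± 1044, and the difference was -0.33 (SE 0.16, limma adjusted p = 0.938). The dimmer Prc1 probe set gave the same picture, with 9619 to 10503 against 7392 to 8769 and -0.32 (SE 0.15). Kif11, the motor that pushes spindle poles apart, had -0.25 (SE 0.18), and read 5901, 8039 and 6989 against 6471, 5707 and 5295. Kif23, the central spindle motor, had -0.14 (SE 0.22), reading 7677, 8984 and 9626 against 10258, 6648 and 7342, with Ret-deficient replicate 1 highest of all. Kif2c, Nusap1, Kif20a and Kif4 lay between -0.10 and 0.00.

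The chromokinesin Kif4 had the largest standard error of the members (0.37). It read 3290.4, 1724 and 1508 in wild-type and 2116, 2771 and 1449 in Ret-deficient kidneys, so wild-type replicate 1 and Ret-deficient replicate 2 were high. The brighter Nusap1 probe set had -0.10, while a dim one was higher in the Ret-deficient kidneys without overlap, at 374.2, 615.4 and 416.9 against 275, 367.1 and 251.4 (0.61, SE 0.25).

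The cytokinesis group held only 2 genes, Ect2 and Anln, and these had the most negative differences of the 35. Ect2, the exchange factor that switches on RhoA at the cell equator, read 13645, 10238 and 10009 in wild-type and 6999, 8870.4 and 8361 in Ret-deficient kidneys. The groups did not overlap, and replicate 1, not replicate 3, was the lowest. Its means were 11297 ± 2037 and 8077 ± 968, with a log2 difference of -0.48 (SE 0.20, limma adjusted p = 0.921). Over the arrays left out in turn its difference ran from -0.56 to -0.33. Anln, or anillin, the scaffold of the contractile ring, read 6729, 5938 and 5503 in wild-type and 3920.1, 3791 and 5716 in Ret-deficient kidneys. Replicates 1 and 2 lay below all wild-type arrays while replicate 3 lay within their range. Its difference was -0.46 (SE 0.21, limma adjusted p = 0.928), and over the arrays left out in turn it ran from -0.64 to -0.35. The summed ureteric markers of the 3 Ret-deficient arrays were 6608, 55811 and 45513; their part in Ect2 and Anln was not tested.

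Mki67, the common marker of proliferating cells, and Top2a, which untangles chromosomes, differed little between the groups. Mki67 read 32538, 18120.2 and 18791 in wild-type and 24717, 22002 and 15731 in Ret-deficient kidneys. The wild-type arrays spanned the Ret-deficient ones except replicate 3, and the difference of -0.12 (SE 0.29) was 0.15 without wild-type replicate 1. Top2a read 30031, 23046 and 23725 against 32454, 23441 and 17823, a difference of -0.09 (SE 0.26) that was 0.03 without the same array. A dimmer Top2a probe set read 1293, 1355 and 860.3 in wild-type and 488.4, 448 and 777.1 in Ret-deficient kidneys, without overlap. Its difference was -1.03 (SE 0.28, limma adjusted p = 0.861), the most negative of the 59 member probe sets. In the brighter Top2a probe set Ret-deficient replicate 1 was highest, and in the dimmer one it was among the lowest.

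**Figure D3:**
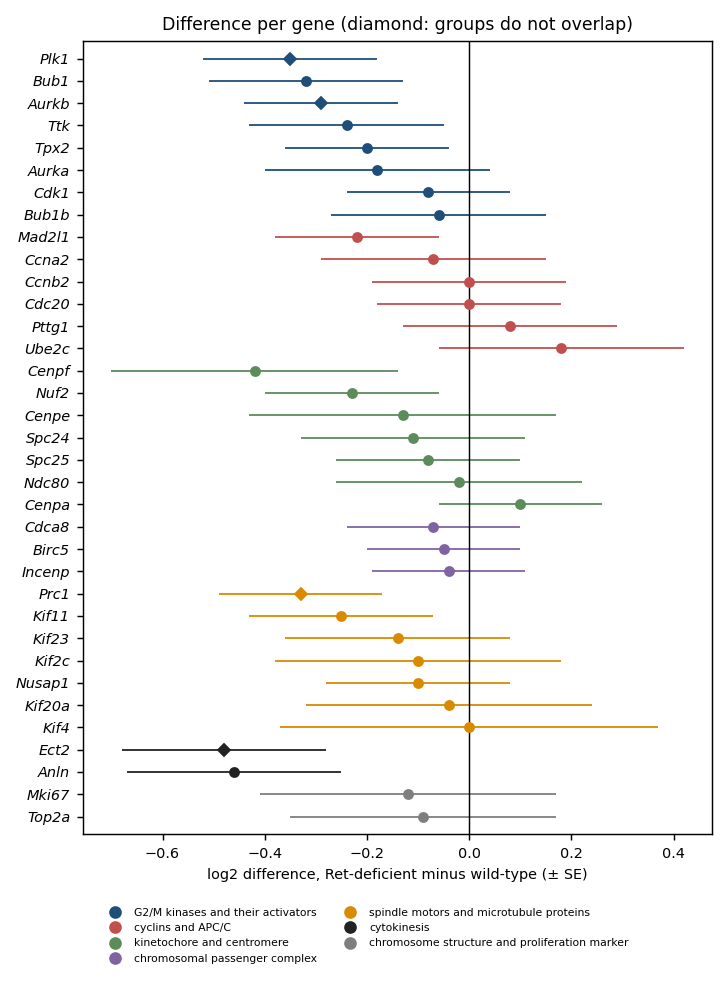
Log2 difference of each of the 35 mitotic genes with its SE, coloured by role; diamonds mark the 4 genes whose groups do not overlap. Ect2 and Anln lie furthest below 0 at -0.48 and -0.46, and Ube2c furthest above at 0.18.

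Genes with several probe sets mostly had them on the same side. Of the 19 such genes 15 had all tested probe sets of the same sign, and 4 did not (Cdc20, Cenpa, Nusap1 and Pttg1). With the mean of a gene's tested probe sets in place of the brightest, the median of the 35 genes was -0.176, 32 were negative (against 50.5% of all genes) and 7 did not overlap (against 6.35% of all genes), all with the Ret-deficient arrays lower. Of the 14 probe sets under the brightness filter, which read 2.1 to 642.6, 10 had an array at or under the bacterial control.

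In the control group, wild-type replicate 1 was above the mean of the other wild-type arrays by over 0.3 log2 units in 11 of the 35 genes (Mki67, Kif4, Kif2c, Kif20a, Cenpe, Ect2, Cenpf, Ttk, Top2a, Nusap1 and Nuf2) and below it by as much in 3 (Ube2c, Ccna2 and Kif11). These 14 are 40.0% of the 35, against 49.3% of all genes (23.0% above and 26.3% below). This is the array with the Gapdh ratio of 4.91, and the part of that ratio was not tested. For Kif11 the brightest probe set was low in this array (5901 against 8039 and 6989), while a dimmer one was high (2281 against 1162 and 1049).

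Other genes of mitosis (a list of 130, put together with earlier results of these data known) were described in the same way. Of 125 tested none passed, 93 were negative (74.4%) and the median was -0.12. The groups did not overlap in 17 with the Ret-deficient arrays lower (13.6%, against 5.75% of all genes) and in 1 with them higher. Their median deviation was -0.05 in Ret-deficient replicate 1, -0.13 in replicate 2 and -0.19 in replicate 3. Without Ret-deficient replicate 3 it was 80 of 125 with a median of -0.08, and without wild-type replicate 1 it was 91 with a median of -0.09.

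Among them 19 of 20 condensin and cohesin genes were negative, with a median of -0.19. The part of the Gapdh ratio of wild-type replicate 1 (4.91) in these condensin and cohesin values was not tested. That array was the highest of all 6 in 15 of the 20, against 2831 of all 11592 genes. Without it 16 were negative with a median of -0.08, and without Ret-deficient replicate 3 as well, 13 were. Ncapg2, a condensin II subunit, read 5589.5, 5661.5 and 5305 in wild-type and 3593, 3279.8 and 4349.5 in Ret-deficient kidneys, with a gap between the groups and a difference of -0.57 (SE 0.17, limma adjusted p = 0.861). Smc2, the core ATPase subunit of condensin, had -0.39, and Ncaph2 was the exception at 0.43. Of 28 other kinetochore genes 22 were negative (median -0.15); Zwilch and Cenpi did not overlap, with -0.41 and -0.53. Of 14 genes that govern mitotic entry 11 were negative (median -0.10). There the Cdk1-inhibiting kinase gene Pkmyt1 (-0.39) and the cyclin F gene Ccnf (-0.37) did not overlap (14.3% of the 14, against 5.75% of all genes). Mastl, or Greatwall, had -0.70 with overlapping groups.

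Of 29 further spindle and cytokinesis genes 22 were negative (median -0.11). The cytokinesis kinase gene Cit had -0.46, and read 2289, 2797 and 2003 in wild-type and 1817, 1629.8 and 1637 in Ret-deficient kidneys, so the groups did not overlap. Cep55 and Racgap1, also of this list, lay near 0, at -0.06 and 0.01. The augmin subunit gene Haus6 had -0.50, and Haus7, of the same complex, was the gene that was higher without overlap, at 0.30. In 4 of the 29 genes the groups did not overlap with the Ret-deficient arrays lower (13.8%, against 5.75% of all genes). The core subunits and regulators of the anaphase-promoting complex went the other way by sign, with 5 of 17 negative and a median of 0.06. Without wild-type replicate 1 it was 7 of 17 with a median of 0.03, and without Ret-deficient replicate 3 it was 4 of 17 with 0.12. Within this list only the inhibitor Fbxo5, or Emi1, did not overlap, at -0.33 (5.88% of the 17, against 5.75% of all genes).

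Of 17 transcription regulators of these genes 14 were negative, with a median of -0.14. Foxm1, the forkhead activator of late cell cycle genes, read 1509, 2116 and 1766 in wild-type and 1859.5, 845 and 1092.5 in Ret-deficient kidneys. Replicate 1 was inside the wild-type range and replicates 2 and 3 below it, and the difference was -0.56 (SE 0.31, limma adjusted p = 0.938). E2f7 had -0.37, and Nfya, a subunit of the CCAAT-binding factor, had -0.20 without overlap, while Nfyb and Nfyc each had -0.03. Nfya was the only gene of the 17 without overlap (5.88%, against 5.75% of all genes that were lower).

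**Figure D4:**
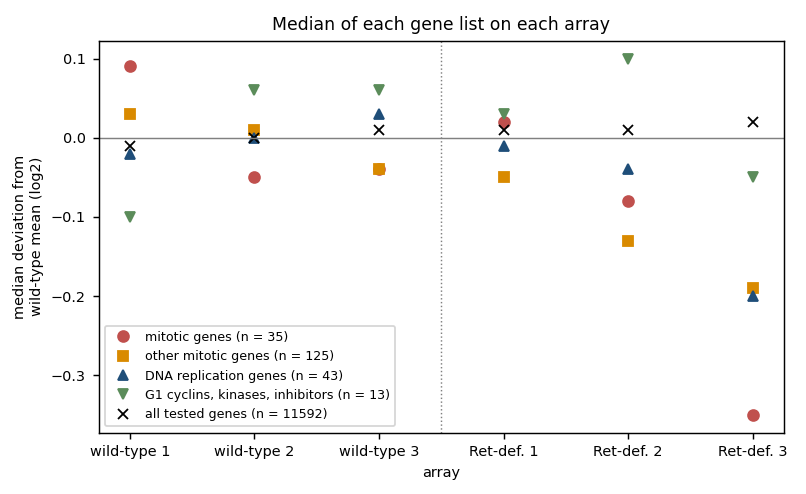
Median deviation from the wild-type mean on each array, in log2 units, for the mitotic genes, the other mitotic genes, the DNA replication genes, the G1 genes and all tested genes. All tested genes stay within 0.02 of 0, and the mitotic genes reach -0.35 in Ret-deficient replicate 3, where the DNA replication genes are at -0.20 and the G1 genes at -0.05.

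Genes of the neighbouring phases are given for comparison, with no test between lists. Of 43 DNA replication genes 35 were negative (81.4%) with a median of -0.11 (25 of 43 and -0.06 without Ret-deficient replicate 3), and their medians by array were -0.01, -0.04 and -0.20 in the Ret-deficient replicates. The licensing factor Cdc6 read 8825, 9780.4 and 10022 in wild-type and 6443, 6201 and 5593 in Ret-deficient kidneys, a difference of -0.65 (SE 0.15, limma adjusted p = 0.861) with a wide gap between the groups. In 4 of the 43 genes the groups did not overlap, all lower (9.3%, against 5.75% of all genes). Of 13 cyclins, kinases and inhibitors of the G1 phase 6 were negative, with a median of 0.05 that was -0.07 without wild-type replicate 1. Only Cdk6 did not overlap, at -0.46 (7.69% of the 13, against 5.75% of all genes that were lower). The inhibitor Cdkn1b, or p27, had 0.37 with overlapping groups.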

How the data were processed

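The deposited values are a signal intensity per probe set and array on a linear scale, made with MAS5 per the submitters' processing notes; the sources used here do not give its version or scaling target, nor any detection call. RNA was amplified with the NuGEn Ovation kit, per the labels. The authors' intensity values share 1 trimmed mean on all arrays and were not normalized further. After adding 16 and taking log2, which shrinks the differences of dim probe sets, a 2-group model without covariates was fitted with limma 3.58.1 (lmFit, eBayes) under R 4.3.3, with files read by the data.table package (version 1.17.8), adjusting by Benjamini-Hochberg over all 22519 tested probe sets. Tests left out the 64 control probe sets and all with a 6-array mean signal below 304.5, the median of those means. Symbols came from the platform annotation, updated by gene ID through RefSeq names (34754 of 34958 single symbols); 932 probe sets had several symbols and 9211 none, and these were not named. The gauge of background was the brightest of 27 unspiked bacterial controls.

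Values are given for members whose groups do not overlap and for the 3 with the smallest limma p in each role group; of the other lists at most 3 per list are named. Further genes, probe sets and motif positions in the text were picked after their values were seen. The members and lists were chosen with earlier results of these data known. The limma fit was tested on simulated data with changes larger than those of the mitotic genes by their brightest probe sets. That test does not show how well differences of their size are found. The main model did not pair the samples by replicate number. Deviations of same-numbered arrays correlated at 0.041, -0.036 and -0.113, and those of the other pairs at -0.196 to 0.216. With 3 arrays per group these values cannot decide whether the samples were paired. Alternatives were pseudocounts of 1 and 64, other filters, quantile normalization, median centring, an intensity trend, array quality weights, a replicate block, a threshold of 0.1, averaging all tested probe sets per gene, and leaving out each array. The number of arrays limits the precision.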

Additional observations from a re-analysis of the deposited data

How the results depend on the processing

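No mitotic probe set passed the limma threshold under any alternative run, a threshold of 0.1 included. Over all tested probe sets 1 passed with an intensity trend and 2 with array quality weights, and 0 to 1 passed with 1 array left out. The median of the mitotic genes stayed negative under all alternatives, between -0.199 and -0.048 with 1 array left out and at -0.107 with quantile normalization. The count of negative genes ran from 20 to 32 with 1 array left out (57.1% to 91.4%, against 48.5% to 49.9% of all genes). It was 18 without both wild-type replicate 1 and Ret-deficient replicate 3 (51.4%, against 49.7%). The count of genes without overlap ran from 5 to 14 with 1 array left out, where fewer arrays make overlap rarer. Of the genes, 11.4% to 40.0% were then lower without overlap, against 8.18% to 15.1% of all tested probe sets; the 14 genes (40.0%) came without Ret-deficient replicate 1, where the share of all was 10.7%. The count was 7 with the mean of probe sets (against 6.35% of all genes). Without both arrays it was 15, and the 9 lower among them (25.7%) were near the 24.0% of all probe sets. With the replicate block, the mitotic probe sets past the threshold stayed at 0, and unadjusted p under 0.05 was met by 1134 of all probe sets against 1208. Of the 19 members picked for values by the rule stated above, 6 changed sign somewhere in their brightest probe set. With array quality weights Ube2c was at -0.02, Cdca8 at 0.02, Mki67 at 0.18 and Top2a at 0.08. With 1 array left out the ranges were -0.05 to 0.34 for Ube2c, -0.05 to 0.23 for Pttg1, -0.14 to 0.03 for Cdca8, -0.09 to 0.01 for Birc5, -0.27 to 0.15 for Mki67 and -0.31 to 0.12 for Top2a. Without both arrays Cdca8 was at 0.10, Birc5 at 0.02, Mki67 at 0.34 and Top2a at 0.24. With 1 array left out, a setting added for the other lists after seeing the data, the medians ran from -0.18 to -0.11 for mitotic entry, from -0.20 to -0.08 for the transcription regulators, from 0.02 to 0.12 for the anaphase-promoting complex, from -0.20 to -0.10 for the other kinetochore genes and from -0.16 to -0.02 for the further spindle and cytokinesis genes. The causes were not tested.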
